A study of Drosophila melanogaster with 3 samples.

Results

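The aminoacyl-tRNA synthetase genes of Drosophila melanogaster were taken by symbol from the protein-coding genes of the Ensembl BDGP6 annotation, an amino acid name followed by RS, with alpha- or beta- before the phenylalanine subunits and -m after the genes for the mitochondrial enzymes. This gave 35 genes of 13945, 20 cytosolic and 15 mitochondrial. Chromatin was from whole embryos of mixed sex, aged 0 to 24 h, of a transgenic line that stably carries CG3281 with GFP at its C terminus (CG3281-eGFP), and was precipitated with an antibody to GFP. CG3281 is a C2H2 zinc finger protein. The labels give 3 biological replicates, all of 1 group and from the same line, and no other genotype, stage or treatment was compared. An untagged line was not used here, nor were the control input libraries, and the labels do not give the level of the fusion protein beside that of the endogenous one. On dm6 the authors deposited 6565 reproducible peaks, which had passed a threshold on the irreproducible discovery rate (IDR), and a gene is called bound here where the summit of such a peak lay within 500 bp of one of its transcription start sites (TSSs). Peak lists carry no read counts, so the depth is unknown, and signals are the authors' own values, which rank peaks within a list.

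Aminoacyl-tRNA synthetases attach each amino acid to its tRNA and so supply both cytosolic and mitochondrial protein synthesis. The enzymes fall into 2 unrelated structural families, class I and class II. The mitochondrial enzymes are encoded in the nucleus and imported. Their genes are transcribed in nearly every cell, and whole embryos do not separate the cells in which a promoter was occupied from those in which it was not.

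Cytosolic and mitochondrial synthetase genes differed in how many carried a peak. Of the 20 cytosolic genes 9 (45.0%) were bound, AlaRS, AsnRS, GluProRS, GlyRS, MetRS, SerRS, ThrRS, ValRS and alpha-PheRS. Of the 15 mitochondrial genes 1 (6.67%) was bound, ArgRS-m. Among all protein-coding genes 24.8% were bound, so the cytosolic share lay above this background and the mitochondrial share below it. The 2 kinds together gave 10 of 35 (28.6%), close to the background. No test was made of the difference between the 2 kinds, which is given as counts.

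Sequence is shown around 6 of the 8 summits of bound genes that lay in intergenic DNA, those of MetRS and ValRS being left out, and for IleRS, whose promoter carried a strong region in 2 replicates only. Windows of 50 bp before and after each summit are written along the strand of the gene, with runs of 6 or more A or T in capitals. That of ArgRS-m was shortened to 67 bases because the rest is transcribed. They lie at chr3R:23958450-23958550 (GluProRS, minus strand), chr2L:12103511-12103611 (ThrRS, plus), chr2L:19132007-19132107 (AsnRS, minus), chr3L:15094969-15095069 (GlyRS, plus), chrX:8145645-8145745 (alpha-PheRS, minus), chr3R:7886978-7887044 (ArgRS-m, plus) and chr3L:22288458-22288558 (IleRS, plus), in RefSeq sequence of the same assembly, release 6.
GluProRS: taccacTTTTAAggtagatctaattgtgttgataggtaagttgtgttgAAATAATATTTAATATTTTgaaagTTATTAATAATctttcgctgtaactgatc
ThrRS: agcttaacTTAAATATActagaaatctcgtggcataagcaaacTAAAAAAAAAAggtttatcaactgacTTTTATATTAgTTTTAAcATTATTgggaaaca
AsnRS: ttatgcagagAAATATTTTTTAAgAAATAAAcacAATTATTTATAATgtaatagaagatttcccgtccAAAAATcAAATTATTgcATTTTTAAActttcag
GlyRS: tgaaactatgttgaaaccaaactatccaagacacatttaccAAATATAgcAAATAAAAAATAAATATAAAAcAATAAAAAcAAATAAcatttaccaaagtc
alpha-PheRS: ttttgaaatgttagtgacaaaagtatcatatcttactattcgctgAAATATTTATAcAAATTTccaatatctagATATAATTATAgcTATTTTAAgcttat
ArgRS-m: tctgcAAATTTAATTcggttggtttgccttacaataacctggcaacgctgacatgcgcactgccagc
IleRS: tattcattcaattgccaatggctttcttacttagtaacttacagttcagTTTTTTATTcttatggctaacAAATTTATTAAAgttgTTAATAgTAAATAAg

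Most of the windows of the bound genes were rich in A and T. In the full window of 101 bases the share of A and T was 78.2% at AsnRS and alpha-PheRS, 77.2% at GlyRS, 76.2% at SerRS, 74.3% at GluProRS and ThrRS and 73.3% at AlaRS and MetRS. ValRS stood lower at 58.4%, and ArgRS-m, the 1 mitochondrial gene with a summit, was the lowest at 53.5%. The median over all 3012 promoter summits was 65.3%, and 22.5% of them were at or above the 73.3% reached by 8 of the 10 synthetase summits. That cut-off was the lowest value of these 8, so their count was fixed by its choice. Flanks 500 bp from all summits had a median of 57.4%. Promoters as a whole, from 250 bp before to 50 bp after the outermost TSS, had medians of 64.5% for the cytosolic and 66.7% for the mitochondrial genes and 62.0% for all genes. The A and T share was looked at after the sequences had been seen.

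The strongest synthetase peak was at SerRS, which encodes the seryl-tRNA synthetase (FBgn0031497). It lay on 2L from 3037227 to 3037551 with a pooled signal of 968, rank 682 of 6565. The summit was 12 bp upstream of the SerRS TSS, in the 5' UTR of the divergent gene CG17260, whose TSS is 8 bp from that of SerRS. The strongest region at the promoter in each replicate stood at 8.10, 7.99 and 8.34 times the median of that replicate's list (replicates 1, 2 and 3). The 3 replicates were closer to each other here than at most other bound members, with a mean of 8.14 ± 0.179 (SD, n = 3).

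GluProRS, which encodes the fused glutamyl- and prolyl-tRNA synthetase (FBgn0005674), followed with a signal of 756, rank 1000, on 3R from 23958364 to 23958680. Its replicate values were 5.24, 8.26 and 6.26 times the list median (mean 6.59 ± 1.54, SD, n = 3). ThrRS, for threonyl-tRNA (FBgn0027081), had a signal of 735, rank 1055, on 2L from 12103392 to 12103715. Its values were 6.42, 7.45 and 5.13 (mean 6.33 ± 1.16, SD, n = 3), which overlap those of GluProRS. These 3 genes and AsnRS, for asparaginyl-tRNA (FBgn0086443), were the members among the stronger 3282 peaks of the set. The AsnRS peak on 2L from 19131953 to 19132111 had a signal of 441, rank 2289, and 3.58, 3.78 and 3.94 times the list median in the replicates.

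The other bound cytosolic genes had peaks from the rest of the set. AlaRS (FBgn0027094) had a signal of 334 on 2L from 8381660 to 8382095, and its replicate values were 2.76, 3.20 and 2.60 times the list median. MetRS (FBgn0034401) had a signal of 331 on 2R from 18850548 to 18850983, and replicate values of 2.21, 3.44 and 3.11. ValRS (FBgn0027079) had a signal of 329 on 2R from 13198155 to 13198590, and replicate values of 1.93, 4.18 and 2.41. The 3 genes were among the strongest 6565 regions of every replicate, and their values overlapped.

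GlyRS and alpha-PheRS were weaker still in replicate 3. GlyRS (FBgn0027088), with a signal of 291 on 3L from 15094801 to 15095236, stood at 3.11, 3.06 and 1.68 times the list median and ranked 3255, 3174 and 7754. alpha-PheRS (FBgn0030007), a subunit of phenylalanyl-tRNA synthetase, had a signal of 222 on X from 8145477 to 8145912 and stood at 2.02, 1.83 and 1.78. Both were outside the strongest 6565 regions of replicate 3. The enzyme is made of alpha and beta subunits, and the gene for the other subunit, beta-PheRS, had no region in any of the 4 lists.

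The median signal of the 9 bound cytosolic genes was 334, against 411 for all bound genes. A peak of the reproducible set need not be among the strongest 6565 regions of every replicate. The lowest signal in the set was 198, which was also the signal at rank 6565 of the pooled list. alpha-PheRS and ArgRS-m were thus not far inside the set. The member nearest below it was ArgRS, with a pooled signal of 192, rank 6829 in the pooled list. In the replicates ArgRS stood at 1.73, 1.62 and 1.75 times the list median, ranks 7340, 7689 and 7381, with little spread in height. The summits of these regions lay apart, at -221, -169 and -334 bp from the ArgRS TSS. The TSS of the divergent gene CG8578 is 331 bp from that of ArgRS. In pooled signal ArgRS was followed by SerRS-m at 168, ProRS-m at 155, AspRS at 153 and CysRS at 118.

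**Figure D1:**
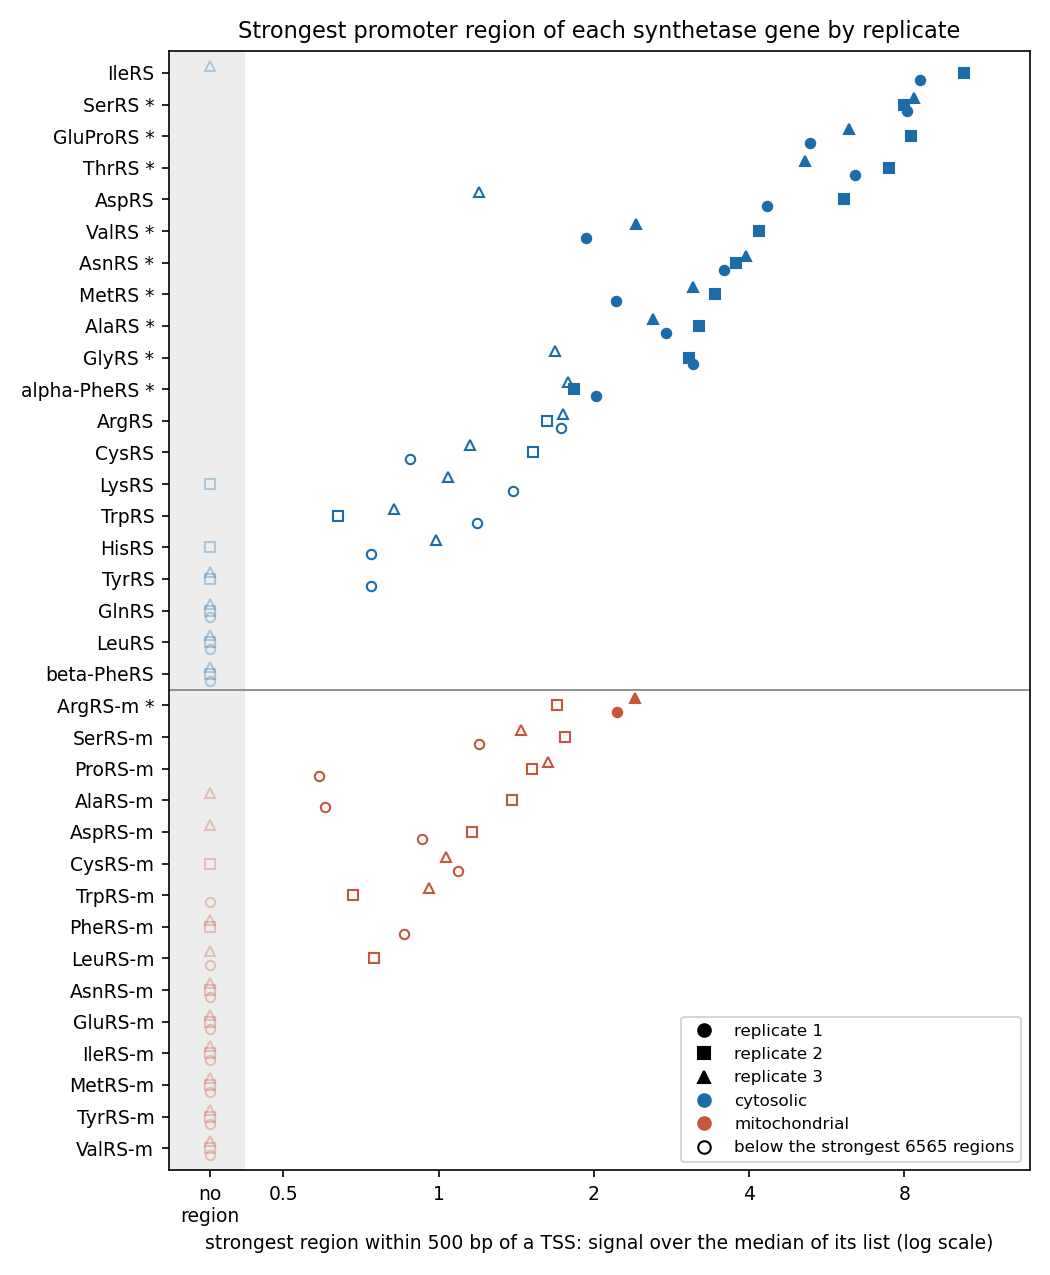
The strongest region within 500 bp of a TSS of each of the 35 synthetase genes, by replicate, as signal over the median of that replicate's list on a log axis; filled symbols are among the strongest 6565 regions, open ones are below them, the grey strip holds genes without a region, and asterisks mark bound genes. Filled symbols of mitochondrial genes occur at ArgRS-m only, and IleRS combines the highest value of the plot, 10.4 in replicate 2, with no region in replicate 3.

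ArgRS-m, for the mitochondrial arginyl-tRNA synthetase (FBgn0037526), was the bound mitochondrial gene. Its peak on 3R from 7886810 to 7887245 had a signal of 224, rank 5639, with the summit 17 bp upstream of the TSS. The strongest region at the promoter stood at 2.22, 1.70 and 2.41 times the list median in the replicates and ranked 5198, 7221 and 4722, so in replicate 2 it was below the strongest 6565. The cytosolic gene for the same amino acid, ArgRS, was the unbound member nearest the threshold. In replicate 2 its value of 1.62 was close to the 1.70 of ArgRS-m.

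The other 14 mitochondrial genes were unbound. Of these, 5 had some weak region of the pooled list within 500 bp of a TSS, SerRS-m and ProRS-m (above), CysRS-m at a signal of 99.9, TrpRS-m at 89.8 and AspRS-m at 73.1. The pooled list held no such region for AlaRS-m, AsnRS-m, GluRS-m, IleRS-m, LeuRS-m, MetRS-m, PheRS-m, TyrRS-m and ValRS-m. Of these 9, AlaRS-m, LeuRS-m and PheRS-m had a weak region in 1 or 2 replicates, at most 1.39 times the list median, and the other 6 had none in any list. With any region of the pooled list counted, 14 of 20 cytosolic genes (70.0%) and 6 of 15 mitochondrial genes (40.0%) had one, against 47.5% of all genes. The nearest reproducible peak to LeuRS-m was strong, with a signal of 1361, and lay 869 bp from its TSS in an intron of the neighbour Dhc64C, which encodes a dynein heavy chain.

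Across amino acids, 15 had genes for both compartments, with GluProRS counted for glutamate and proline. For 8 of them a cytosolic gene alone was bound, for arginine the mitochondrial gene alone, for none both, and for 6 neither. As 1 mitochondrial gene was bound in all, at most 1 amino acid could have had both. The 6 were aspartate, cysteine, isoleucine, leucine, tryptophan and tyrosine. For the other 5 amino acids, glutamine, glycine, histidine, lysine and threonine, the set holds no mitochondrial gene, and of their cytosolic genes GlyRS and ThrRS were bound. GlyRS and LysRS are known in mammals to serve both compartments from 1 gene.

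The replicates were compared by calling genes from the strongest 6565 regions of each. Cytosolic genes were bound in 11 of 20 cases (55.0%) in replicate 1, in 11 (55.0%) in replicate 2 and in 7 (35.0%) in replicate 3, a mean of 48.3% ± 11.5 (SD, n = 3). Mitochondrial genes were bound in 1, 0 and 1 of 15 cases, a mean of 4.44% ± 3.85 (SD, n = 3). All genes gave 24.8%, 26.3% and 24.1%. The cytosolic share was above that of all genes and the mitochondrial share below it in each. The 7 cytosolic genes called in replicate 3 were called in all 3 replicates.

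**Figure D2:**
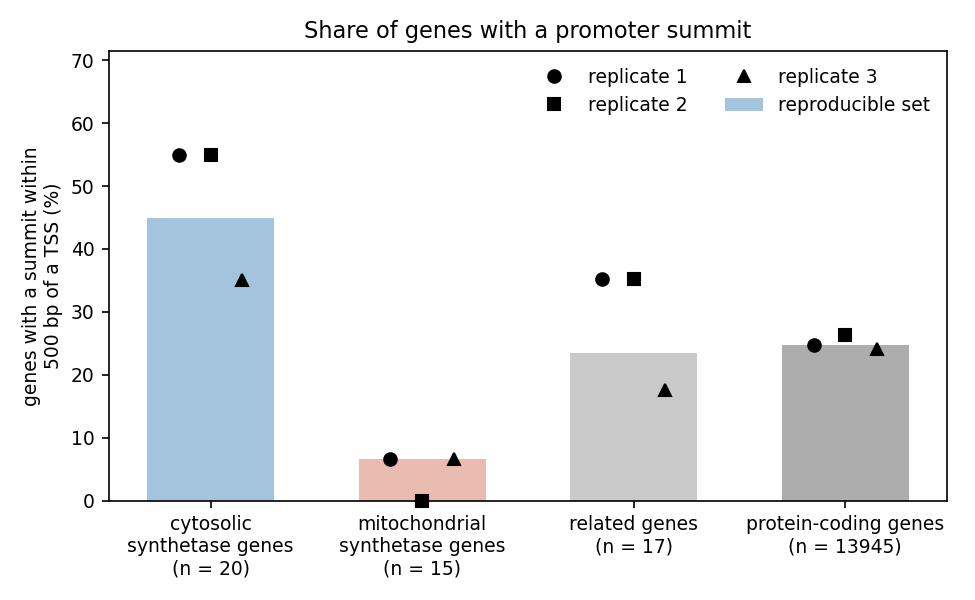
Share of genes with a summit within 500 bp of a TSS, in percent, for the reproducible set (bars) and the strongest 6565 regions of each replicate (symbols). Cytosolic synthetase genes lie between 35.0% and 55.0% in the replicates and mitochondrial ones between 0% and 6.67%, with all protein-coding genes between 24.1% and 26.3%.

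Among cytosolic genes, IleRS and AspRS made the difference between the reproducible set and replicates 1 and 2. At IleRS, for isoleucyl-tRNA (FBgn0027086), replicate 1 held a region of rank 670 on 3L from 22288401 to 22288607 and replicate 2 one of rank 466 from 22288381 to 22288627. They stood at 8.56 and 10.4 times the list median, higher than SerRS in the same replicates, with summits 161 and 157 bp upstream of the TSS. Replicate 3 and the pooled list held no region within 500 bp of that TSS, and the gene was therefore not called. Of 5100 regions among the strongest 6565 of replicate 2 that overlapped one of the strongest of replicate 1 by at least 1 base, 80 (1.57%) overlapped no region of the pooled list or of replicate 3, and that at IleRS had the highest signal of the 80. The same count was lower for the other pairs. It was 7 of 5037 (0.139%) for replicates 2 and 3, with replicate 1 as the third. For replicates 1 and 3, with replicate 2 as the third, it was 12 of 5092 (0.236%). The cause of the higher share for replicates 1 and 2, and of the record at IleRS, was not tested.

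AspRS, for aspartyl-tRNA (FBgn0002069), had a similar record at its inner promoters. Replicate 2 held a region of rank 1167 on 2R from 12880078 to 12880182, 6.11 times its list median, and replicate 1 one of rank 2008 from 12879790 to 12880205, at 4.33. Their summits were 199 and 286 bp upstream of the inner TSS at 12880284. The region of replicate 2 was the sixth by signal of the same 80. At the outer TSS of AspRS the pooled list held a region with a signal of 153, and replicate 3 stood at 1.20 times its list median. The 1 reproducible peak inside AspRS, with a signal of 273, lay 1428 bp from its nearest TSS, in an intron that overlaps the 5' UTR of Nmda1, a gene for a glutamate receptor-associated protein.

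The remaining cytosolic genes were low in each list that held them. CysRS was highest in replicate 2 at 1.52 times the list median, LysRS in replicate 1 at 1.39, TrpRS in replicate 1 at 1.19, HisRS in replicate 3 at 0.988 and TyrRS in replicate 1 at 0.740. GlnRS and LeuRS, like beta-PheRS, had no region within 500 bp of a TSS in the pooled list or in any replicate. The nearest reproducible peak was 3132 bp from GlnRS, 7342 bp from beta-PheRS and 19997 bp from LeuRS.

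Synthetase genes often stood back to back with a neighbour, and the 2 kinds differed in this. A TSS on the other strand lay up to 1000 bp upstream of 17 of the 20 cytosolic genes (85.0%) and of 7 of the 15 mitochondrial genes (46.7%), against 36.2% of all genes. With such a neighbour 8 of 17 cytosolic genes were bound (47.1%) and 1 of 7 mitochondrial genes (14.3%), beside a background of 40.6% for all genes so arranged. The cytosolic share was thus near that of other genes with the same arrangement. Without such a neighbour 1 of 3 cytosolic genes was bound, AlaRS, and 0 of 8 mitochondrial genes, beside 15.8% of all such genes. The mitochondrial genes, only 7 and 8 in number, were below the background in both arrangements. The part that the arrangement has in the difference between the 2 kinds was not tested.

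Summits lay upstream of the TSS at all 10 bound genes, with a median of -111.5 bp against -125 bp for all bound genes. The share of all bound genes with an upstream summit is not given here, so the 10 are not set apart by their count. At GluProRS the summit was 109 bp from its own TSS and 151 bp from that of AP-1sigma, a subunit of a clathrin adaptor. At ThrRS it was 190 bp away, and 276 bp from Patsas. At AsnRS it was 103 bp away, and 266 bp from DCTN6-p27, a dynactin subunit. In each of these the synthetase gene was the nearer. The same held at GlyRS, 123 bp away with the centrosomal gene Plp at 295 bp, at alpha-PheRS, 93 bp away with CG2129 at 144 bp, and at ArgRS-m, with CG17816 at 295 bp.

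At 3 members the neighbour was nearer. The member's own TSS was thus the nearest to the summit at 7 of the 10 bound genes. This is close to the share of all bound genes, 75.0%. The ValRS summit was 477 bp upstream of its TSS, near the edge of the window, and 36 bp from that of Kdm4B, a histone demethylase gene. The MetRS summit was 167 bp away, and 78 bp from CG15084. The SerRS summit was 12 bp away, and 4 bp from CG17260. AlaRS had no neighbour of this kind, and its summit, 114 bp upstream, lay in the 3' UTR of CG13392. With each summit given only to its nearest TSS, 6 of 20 cytosolic genes (30.0%) and 1 of 15 mitochondrial genes remained bound, against 19.3% of all genes.

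**Figure D3:**
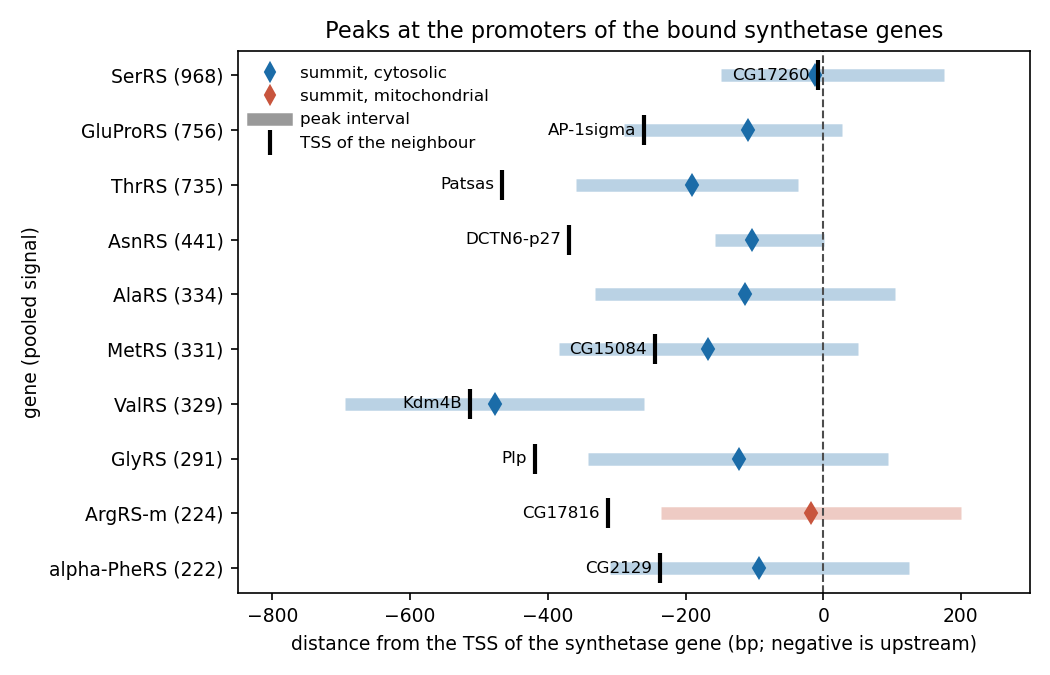
Position of the peak at each of the 10 bound synthetase genes, in bp from its TSS (dashed line, negative upstream), with the summit as a diamond, the peak interval as a band and the TSS of the nearest neighbour as a bar; genes are ordered by pooled signal. Most summits lie between the 2 start sites and nearer to the synthetase gene, while that of ValRS lies 36 bp from Kdm4B.

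Of 8 known promoter motifs searched on both strands within 50 bp of the 10 synthetase summits, 3 had a match. TATAAA was present at 5, AsnRS, GlyRS, SerRS, ThrRS and alpha-PheRS, against 21.2% of all promoter summits, in windows that are rich in A and T. CAGCTG, an E-box of housekeeping promoters, was present at ArgRS-m (5.51% of promoter summits). The core of Motif 1, GTCACACT, was present at ValRS (1.49%). No match was found for the DRE TATCGATA (2.49% of promoter summits), GAGAG (9.89%), the amino acid response element TGATGNAA (1.43%), TGACGTCA (0.232%) or CACGTG (0.863%).

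In the promoters as a whole the DRE, bound by Dref, was present in 4 of 20 cytosolic genes, AlaRS, ArgRS, IleRS and TrpRS, and in 1 of 15 mitochondrial genes, PheRS-m, against 9.36% of all promoters. CAGCTG was present in 10 of 20 and 7 of 15, against 17.7%. The core of Motif 1 was present in 3 of 20 and 3 of 15, against 6.62%. The amino acid response element, bound by ATF4, was present in CysRS and beta-PheRS, both unbound, and in 4.07% of all promoters. TATAAA was present in 12 of 20 cytosolic and 7 of 15 mitochondrial promoters, against 45.8% of all promoters, and in those of 8 of the 10 bound genes. GAGAG was present in 4 of 20 and 2 of 15, against 29.7%. No motif of this list was present in the summit windows of all 10 bound genes, and CAGCTG matches were about as frequent in mitochondrial as in cytosolic promoters.

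By structural class, 6 of 10 cytosolic class II genes were bound (60.0%) and 2 of 9 class I genes (22.2%). Of all genes 24.8% were bound, and 40.6% of those with a back-to-back neighbour. Among members with such a neighbour, 5 of 8 class II (62.5%) and 2 of 8 class I genes (25.0%) were bound. The class I share was thus near that of all genes but below that of genes so arranged. The bound class I genes were MetRS and ValRS, at both of which the neighbour was nearer to the summit. In replicates 1, 2 and 3 class II gave 7, 7 and 4 of 10 and class I gave 3, 3 and 2 of 9. GluProRS holds an enzyme of each class. Of the 8 enzymes that form the multisynthetase complex in mammals, GluProRS and MetRS were bound (25.0%), against 7 of the 12 others (58.3%). All genes stood at 24.8%. In replicates 1 and 2, where IleRS and AspRS were called, the gap was smaller, with 4 of the 8 (50%) against 7 of the 12 others (58.3%). In replicate 3 it was 2 of 8 (25.0%) against 5 of 12 (41.7%). In the reproducible set, among genes with a back-to-back neighbour, it was 2 of 8 (25.0%) against 6 of 9 (66.7%). All genes so arranged stood at 40.6%. Both groupings were looked at after the members' values had been seen.

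Genes that act with the synthetases were bound in 4 of 17 cases (23.5%), close to the 24.8% of all genes. The highest signal was 1975, rank 169, at eEF1gamma, a subunit of the factor that recharges the carrier of aminoacyl-tRNA with GTP, with the summit 5 bp upstream of the TSS. The carrier gene eEF1alpha1 had a signal of 511, with the summit 37 bp downstream. GatA, part of the mitochondrial amidotransferase that makes glutaminyl-tRNA, had 587, and Slimp, a relative of the mitochondrial seryl enzyme, had 208. The first 3 were called in all 3 replicates and Slimp in 1. GatA has a back-to-back neighbour, P5cr, and was lost with each summit given only to its nearest TSS. That left 3 of the 17 bound (17.6%), against 19.3% of all genes. None of the complex scaffold genes AIMP1, AIMP2 and AIMP3 was bound, nor were Gcn2, a kinase that senses uncharged tRNA, and crc, the fly ATF4 gene. Mitochondrial ribosomal protein genes, which serve the same translation system as the mitochondrial synthetases, were bound in 40 of 73 cases (54.8%). How many of these genes have a back-to-back neighbour is not given here, nor are their counts in the replicates.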

How the data were processed

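Peaks and regions were measured by ChIP-seq in 3 replicates of 1 group. Per the labels and the submitters' records, the authors called 30000 regions, background included, in each replicate against 1 control and again in the replicates pooled, and took the IDR set from those calls. The sources used here name no aligner, caller or IDR threshold. The deposited signal per region is on a scale that differs between lists, so ranks and ratios to the list median (33.9, 38.7 and 43.7 in replicates 1, 2 and 3) were used. The deposited summit offset gave summit positions. Lists on dm3 and control libraries were not used here.

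Gene models were those of Ensembl release 115 on the same assembly (19607 TSSs) and sequence that of RefSeq. Every listed region ends within its chromosome arm there. Coordinates are dm6, 1-based. Calculations used Python 3.11.15, numpy 2.4.6, pandas 2.3.3 and matplotlib 3.10.9. All synthetase genes are named, with a neighbour where its TSS lies near the summit. No test was run: shares are set beside those of all genes, and the assignment of summits was checked on simulated summits. The members, the list of 17 related genes and the 8 motifs were chosen with earlier results of these data known. Alternatives were other TSS windows, the stronger 3282 peaks, peak intervals, the nearest or outermost TSS and leaving out each replicate, by keeping only peaks with 50% of their length covered by the strongest 6565 regions of both others.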

Additional observations from a re-analysis of the deposited data

How the results depend on the processing

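The higher share of cytosolic genes held in direction under each setting tried, but its size moved. With the stronger 3282 peaks 4 cytosolic, 0 mitochondrial and so 4 synthetase genes were bound (cytosolic 20.0%, against 15.2% of all genes), and the cytosolic share was then near the background. With a TSS window of 1000 bp 2 mitochondrial genes were bound, LeuRS-m being added (13.3%, against 28.6% of all genes). Leaving out each replicate gave from 6 to 7 cytosolic genes, from 0 to 1 mitochondrial genes, from 6 to 7 synthetase genes and 3 related genes each time, while the share of all genes fell to 18.7%, 18.1% and 18.6% without replicates 1, 2 and 3. ArgRS-m was lost without replicate 1 or replicate 3, which leaves 0 mitochondrial genes. The synthetase count fell from 10 to 6 without replicate 1, with ArgRS-m, GlyRS, SerRS and alpha-PheRS lost. SerRS was lost without replicate 3 as well, and GluProRS without replicate 2 or replicate 3. The SerRS region ranked 738, 756 and 681 in replicates 1, 2 and 3, and that of GluProRS 1517, 713 and 1091. Both genes were thus lost by the rule that 50% of the peak length be covered, not by a low rank in a replicate. The settings that leave out a replicate kept from 4399 to 4580 peaks and are a stricter filter on the same set. The median summit distance was -109 bp with a window of 250 bp, -114 bp with 1000 bp and -106 bp with the stronger peaks. Peak intervals in place of summits, and the outermost TSS alone, left 9 cytosolic and 1 mitochondrial genes bound. The share of all genes was 26.5% with peak intervals and 22.2% with the outermost TSS. With a TSS window of 250 bp 8 cytosolic genes (40.0%) and 1 mitochondrial gene were bound, ValRS being lost, against 20.0% of all genes. Other causes were not tested. With 15 mitochondrial genes 1 peak more or less moves the share by 6.67 percentage points.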
